A study of Homo sapiens with 12 samples.

Results

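The 8 genes described here, RRM1, RRM2, DCTD, DUT, TYMS, DTYMK, TK1 and DCK, encode enzymes that make thymidylate and the other deoxynucleotides, the building blocks of DNA. They were taken by gene symbol and were represented by 13 probes, of 47315 probes in all and 20045 genes with a named probe. The 8 genes were chosen from a pathway with the results of these same arrays in view, that is, the differences between the 3 groups, so the differences at their probes are given as a description and without p-values. A probe is said to have passed where its adjusted p from limma, corrected over all 47315 probes, was under 0.05.

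The values came from HT144, an established human melanoma cell line, transfected by Lipofectamine2000 with the non-targeting siRNA siNEG or with either of the siRNAs #1 siCITED1 and #3 siCITED1, which target the transcriptional co-regulator CITED1. RNA was collected after 48 h and each of the 3 groups had 4 arrays, 12 in all, from wells of a single day and passage. The spread between arrays is therefore that between wells of one experiment. The authors' values are log2 values from which the mean of each probe and each array had been taken away, so 0 is a probe's mean over the 12 arrays, and a value holds no absolute level.

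Ribonucleotide reductase, built from the large subunit RRM1 and the small subunit RRM2, turns ribonucleotides into deoxynucleotides. Thymidylate is then made from deoxyuridylate, which comes from deoxycytidylate through DCTD or from dUTP through DUT, by the methyl transfer that TYMS carries out, and DTYMK phosphorylates the product. TK1 and DCK instead salvage free deoxynucleosides. Several of these genes are known to be transcribed mostly in cells that enter S phase, through E2F factors and through CCAAT boxes bound by NF-Y.

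The targeted gene was lower on every siCITED1 array than on every siNEG array. CITED1 (ILMN_1691641) differed from siNEG by -0.64 ± 0.06 (SE) with #1 siCITED1 (limma, adjusted p = 1.8e-07) and by -0.75 ± 0.06 with #3 siCITED1 (adjusted p = 6.5e-08). Between the siRNAs the difference was 0.11 ± 0.06 (adjusted p = 0.47, 95% interval -0.03 to 0.24). This is a single probe of mRNA. From a Western blot of the protein at the time of the arrays, the authors described weaker silencing with #3 siCITED1. The SDs of the 12 arrays over all probes ran from 0.11 to 0.134, and the widest was siNEG replicate 1.

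Promoter sequences are shown for 4 of the genes whose leading probe differed from siNEG with #1 siCITED1, together with that of DCTD, whose pattern over the arrays was different. Each run is the 250 bases before a RefSeq start on GRCh38.p14, on the strand of the gene. Capitals mark matches on either strand to an E2F-type motif (TTTGGCGC, TTTCGCGC, TTTCCCGC or TTTGCCGC), a CCAAT box (CCAAT), a CHR, the cell cycle homology region (TTTGAA), or a TATA-like motif (TTTAAA), and in the runs printed no match overlapped another.

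RRM2, chr2:10122489-10122738, plus strand: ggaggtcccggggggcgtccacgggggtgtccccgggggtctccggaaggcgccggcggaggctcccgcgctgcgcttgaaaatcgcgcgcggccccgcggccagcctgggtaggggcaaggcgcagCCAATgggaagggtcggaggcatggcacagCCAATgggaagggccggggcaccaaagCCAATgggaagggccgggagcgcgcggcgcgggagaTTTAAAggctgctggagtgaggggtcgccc

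TK1, chr17:78187053-78187302, minus strand: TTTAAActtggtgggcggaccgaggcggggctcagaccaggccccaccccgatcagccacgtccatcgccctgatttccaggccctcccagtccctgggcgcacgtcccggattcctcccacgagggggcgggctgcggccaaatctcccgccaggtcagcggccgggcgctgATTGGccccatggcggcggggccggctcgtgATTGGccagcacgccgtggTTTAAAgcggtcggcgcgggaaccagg

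TYMS, chr18:657403-657652, plus strand: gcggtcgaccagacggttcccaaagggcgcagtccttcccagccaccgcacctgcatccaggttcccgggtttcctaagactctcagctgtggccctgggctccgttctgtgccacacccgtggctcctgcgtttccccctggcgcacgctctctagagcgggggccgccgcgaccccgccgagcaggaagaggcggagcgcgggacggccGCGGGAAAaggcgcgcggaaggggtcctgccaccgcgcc

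DUT, chr15:48331947-48332196, plus strand: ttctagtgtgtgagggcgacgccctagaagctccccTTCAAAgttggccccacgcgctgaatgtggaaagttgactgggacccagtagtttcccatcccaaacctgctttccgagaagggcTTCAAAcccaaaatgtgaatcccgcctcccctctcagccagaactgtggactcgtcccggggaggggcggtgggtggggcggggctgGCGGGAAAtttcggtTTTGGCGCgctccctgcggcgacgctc

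DCTD, chr4:182917612-182917861, minus strand: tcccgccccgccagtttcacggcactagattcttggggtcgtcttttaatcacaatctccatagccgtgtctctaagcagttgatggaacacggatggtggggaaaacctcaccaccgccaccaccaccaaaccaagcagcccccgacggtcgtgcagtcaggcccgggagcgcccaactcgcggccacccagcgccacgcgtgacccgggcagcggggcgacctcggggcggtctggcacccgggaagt

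The RRM2 window held 3 CCAAT boxes, with first bases 123, 93 and 66 bases before the start, and a TATA-like match at 30. The TK1 window held 2 CCAAT boxes, read on the other strand, at 77 and 46, and TATA-like matches at 250 and 27. In TYMS the single E2F-type match began at 39, and the DUT window shown, the last of 4, had E2F-type matches at 42 and 27 and CHR matches at 214 and 129. The other 3 DUT windows held no match.

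The 8 genes had 14 windows, since DCTD, DUT, RRM2 and TK1 have more than one start. An E2F-type match was present in 2 of the 14 (14.3%), beside 2.79% of all 35116 promoter windows of this length, and a CCAAT box in 5 (35.7%), beside 32%. A CHR was present in 2 (14.3%), beside 13.3%, and a TATA-like match in 3 (21.4%), beside 11.3%. Neither DCTD, in either of its windows, nor DCK held any of the motifs. DTYMK, which passed in no comparison, held 2 CCAAT boxes, at 92 and 24. RRM1 held a CCAAT box at 28 and a CHR at 199. A match describes the letters of the window only.

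RRM2, the small subunit of ribonucleotide reductase, was the only member that passed as lower than siNEG with both siRNAs, and to about the same size. Its probe (ILMN_1678669) read 0.32, 0.12, 0.54 and 0.54 on the siNEG arrays, -0.45, -0.03, -0.26 and -0.12 with #1 siCITED1, and -0.13, -0.38, -0.12 and -0.05 with #3 siCITED1. Every siNEG array lay above 0 and every siCITED1 array below it, with no overlap. The difference was -0.60 ± 0.09 (1.51-fold lower) with #1 siCITED1 and -0.55 ± 0.09 (1.46-fold lower) with #3 siCITED1, and both passed. Between the siRNAs RRM2 differed by -0.05 ± 0.09, with a 95% interval from -0.24 to 0.15. With the 8 siCITED1 arrays pooled, its difference was -0.57 ± 0.09, and RRM2 was the only member probe that passed in that comparison.

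RRM1, the large subunit of the same enzyme, differed less and its groups overlapped. Its probe (ILMN_1771593) gave 0.16 ± 0.15 (SD, n = 4) with siNEG, -0.13 ± 0.14 with #1 siCITED1 and -0.03 ± 0.06 with #3 siCITED1. The siNEG arrays ran from -0.04 to 0.30, and replicate 1 was the low one. The difference was -0.29 ± 0.08 with #1 siCITED1, which passed, and -0.19 ± 0.08 with #3 siCITED1, which did not. The former no longer passed when any one of siNEG replicates 2 and 3 or #1 siCITED1 replicates 1, 2 and 4 was left out. Directly between the siRNAs RRM1 differed by -0.10 ± 0.08 (95% interval -0.26 to 0.06), which did not pass.

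**Figure D1:**
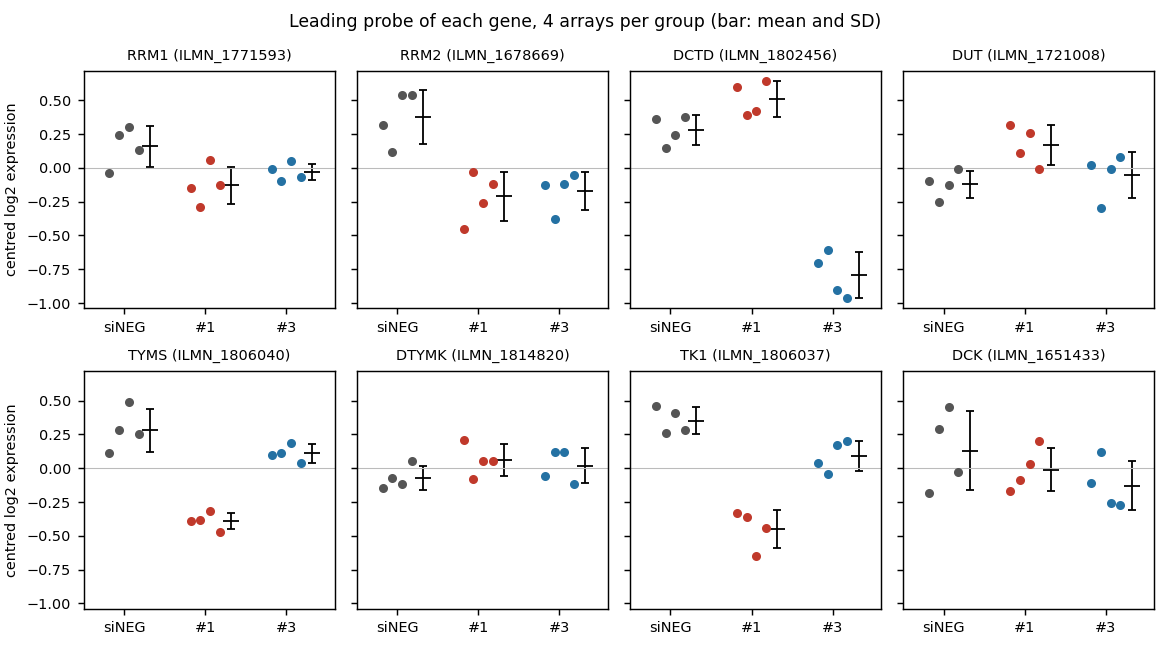
Log2 values, centred on each probe, at the leading probe of each of the 8 genes (vertical axis) for the 4 arrays of siNEG, #1 siCITED1 and #3 siCITED1 (horizontal axis), with points for arrays and bars for the group mean ± SD. RRM2 was lower in both siCITED1 groups, TYMS and TK1 were lowest with #1 siCITED1, and DCTD was lowest with #3 siCITED1.

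DCTD, which deaminates deoxycytidylate to deoxyuridylate, showed the widest range of the 8 genes and separated the siRNAs. Its leading probe (ILMN_1802456) read 0.36, 0.15, 0.24 and 0.38 with siNEG, 0.60, 0.39, 0.42 and 0.64 with #1 siCITED1, and -0.70, -0.61, -0.90 and -0.96 with #3 siCITED1. Thus no #1 siCITED1 array lay below the highest siNEG array, and every #3 siCITED1 array lay far below both other groups. The difference with #3 siCITED1 was -1.08 ± 0.08 (2.11-fold lower), which passed, while that with #1 siCITED1 was 0.23 ± 0.08 (1.17-fold higher), which did not.

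The other DCTD probe (ILMN_2415011) followed the leading one across the 12 arrays, with r = 0.99 overall and 0.85 after group means were removed. It read 0.25, 0.05, 0.19 and 0.21 with siNEG, 0.48, 0.37, 0.35 and 0.50 with #1 siCITED1, and -0.53, -0.55, -0.71 and -0.63 with #3 siCITED1. The groups did not overlap at this probe either. Its differences were 0.25 ± 0.07 with #1 siCITED1 and -0.78 ± 0.07 with #3 siCITED1, both of which passed, but the former was lost when siNEG replicate 2, #1 siCITED1 replicate 1 or #1 siCITED1 replicate 4 was left out, and after a further quantile normalization (0.21). Directly between the siRNAs, DCTD was higher with #1 siCITED1 by 1.31 ± 0.08 (2.47-fold) and 1.04 ± 0.07 (2.05-fold) at its probes, the largest differences between the siRNAs among the 13. Pooling the siRNAs left -0.42 ± 0.28 and -0.27 ± 0.22, neither of which passed, since in that fit the gap between the siRNAs counts as error.

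DUT, the dUTPase that keeps uracil out of DNA and supplies deoxyuridylate, had 3 probes that disagreed. ILMN_1721008 read -0.10, -0.25, -0.13 and -0.01 with siNEG and 0.32, 0.11, 0.26 and -0.01 with #1 siCITED1, a difference of 0.29 ± 0.08 that passed and was higher. ILMN_2374778 read 0.12, 0.09, 0.20 and 0.17 with siNEG and -0.10, -0.17, -0.18 and -0.22 with #1 siCITED1, a difference of -0.32 ± 0.06 that passed and was lower. ILMN_1732688 also passed and was lower, with a difference of -0.29 ± 0.07, siNEG arrays from 0.09 to 0.18 and #1 siCITED1 arrays from -0.33 to 0.03.

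The lower pair of DUT probes therefore did not overlap between siNEG and #1 siCITED1, whereas ILMN_1721008 overlapped through one array. ILMN_1721008 and ILMN_1732688, which the array annotation lists under the same transcript (the probes' positions were not checked here), ran against each other with r = -0.76 over the 12 arrays, and ILMN_1732688 and ILMN_2374778 ran together with r = 0.78. The call at ILMN_1721008 was lost without siNEG replicate 2 or 3 or without #1 siCITED1 replicate 1 or 3, and that at ILMN_1732688 without #1 siCITED1 replicate 1. Averaged over the 3 probes, DUT with #1 siCITED1 differed from siNEG by -0.10 ± 0.05, which did not pass, so the direction of DUT depends on the probe. With #3 siCITED1 the differences at ILMN_1721008, ILMN_1732688 and ILMN_2374778 were 0.07 ± 0.08, -0.12 ± 0.07 and -0.12 ± 0.06, and none passed. Directly between the siRNAs they were 0.22 ± 0.08, -0.17 ± 0.07 and -0.20 ± 0.06, and again none passed. In that comparison ILMN_1732688 passed without #1 siCITED1 replicate 2, and ILMN_2374778 with array weights or without #3 siCITED1 replicate 4.

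TYMS, thymidylate synthase, differed from siNEG mainly with #1 siCITED1. Its probe (ILMN_1806040) read 0.11, 0.28, 0.49 and 0.25 with siNEG, -0.39, -0.38, -0.32 and -0.47 with #1 siCITED1, and 0.10, 0.11, 0.19 and 0.04 with #3 siCITED1. The #1 siCITED1 arrays lay together below all others, while the #3 siCITED1 arrays overlapped the siNEG range. TYMS differed by -0.68 ± 0.07 (1.6-fold lower) with #1 siCITED1, which passed, and by -0.17 ± 0.07 with #3 siCITED1, which did not. The difference between the siRNAs was -0.50 ± 0.07, and this too passed.

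DTYMK, thymidylate kinase, gave no probe that passed in any comparison. ILMN_1814820 differed from siNEG by 0.13 ± 0.07 with #1 siCITED1 and by 0.09 ± 0.07 with #3 siCITED1, and ILMN_2152768 differed by -0.04 ± 0.07 and less than 0.01 in the same order. The correlation between its probes was -0.33.

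**Figure D2:**
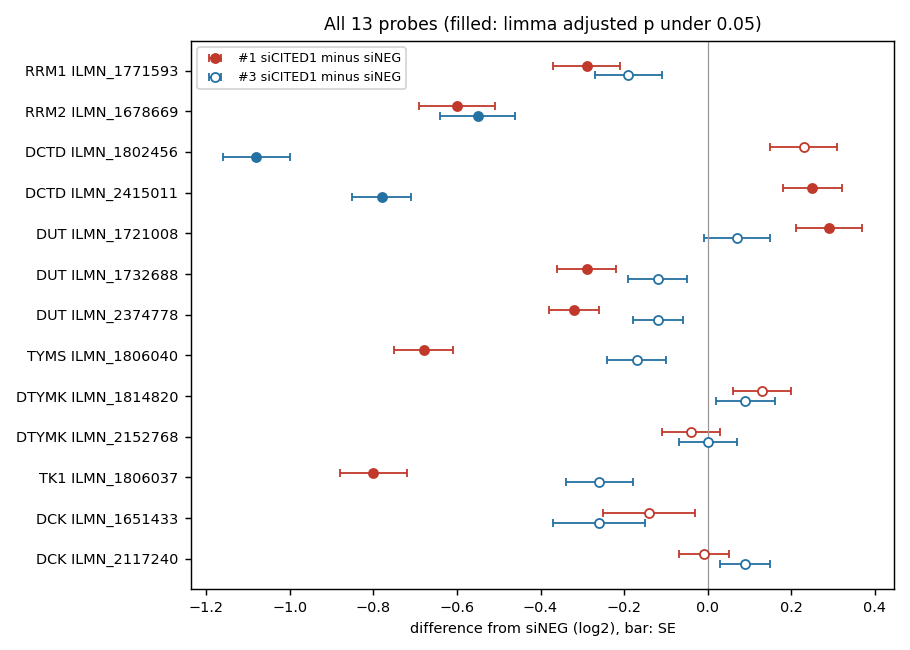
Differences in log2 value at the 13 probes (one row each) for #1 siCITED1 minus siNEG (red) and #3 siCITED1 minus siNEG (blue), with error bars of the SE from limma and filled points for probes that passed. DCTD stood apart at -1.08 and -0.78 with #3 siCITED1, and TK1 at -0.80 was the most negative with #1 siCITED1.

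TK1, cytosolic thymidine kinase, was the member most below siNEG with #1 siCITED1. Its probe (ILMN_1806037) read 0.46, 0.26, 0.41 and 0.28 with siNEG, -0.33, -0.36, -0.65 and -0.44 with #1 siCITED1, and 0.04, -0.04, 0.17 and 0.20 with #3 siCITED1. The 3 groups were ordered without overlap, siNEG highest and #1 siCITED1 lowest. The difference was -0.80 ± 0.08 (1.74-fold lower) with #1 siCITED1, which passed, and -0.26 ± 0.08 with #3 siCITED1, which did not pass although all 4 arrays were below all siNEG arrays. The latter passed after a further quantile normalization (-0.28) and without #1 siCITED1 replicate 3 (-0.26). Between the siRNAs it was -0.54 ± 0.08, which passed, and with the siRNAs pooled it was -0.53 ± 0.13, which just missed the threshold.

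DCK, deoxycytidine kinase, had no probe that passed. ILMN_1651433 read -0.18, 0.29, 0.45 and -0.03 with siNEG, so that the control arrays alone spanned more than the group differences of -0.14 ± 0.11 with #1 siCITED1 and -0.26 ± 0.11 with #3 siCITED1. The latter passed without siNEG replicate 1. At ILMN_2117240 the differences were -0.01 ± 0.06 and 0.09 ± 0.06.

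Counted over all 13 probes, 8 passed with #1 siCITED1, beside 6.04% of all probes, and of these 2 were higher, beside 2.79%, and 6 lower, beside 3.25%. With #3 siCITED1, 3 passed, beside 2.54%, with 0 higher, beside 1.34%, and 3 lower, beside 1.2%. Between the siRNAs 4 passed, beside 7.46%, with 2 higher with #1 siCITED1, beside 3.64%, and 2 lower, beside 3.82%. In the pooled comparison 1 passed, beside 1.11%, with 0 higher, beside 0.583%, and 1 lower, beside 0.526%. These counts describe a set chosen with such values known, and nothing is read from them.

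Groups did not overlap at 7 of the 13 probes with #1 siCITED1, beside 9.19% of all probes, with 2 higher, beside 4.34%, and 5 lower, beside 4.85%. With #3 siCITED1 they did not overlap at 4, beside 6.51%, with 0 higher, beside 3.39%, and 4 lower, beside 3.12%. Between the siRNAs this held at 5, beside 10.9%, with 2 higher, beside 5.46%, and 3 lower, beside 5.48%. With the siRNAs pooled it held at 2, beside 1.68%, with 0 higher, beside 0.86%, and 2 lower, beside 0.824%, the latter being RRM2 and TK1.

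The median difference over the 13 probes was -0.14 with #1 siCITED1 and -0.17 with #3 siCITED1, against 0.00125 and 0.000924 over all probes. Both comparisons share the siNEG arrays, so they are not independent. Averaged over the 8 genes, with each gene the mean of its probes, the siNEG arrays ran from 0.12 to 0.28, those of #1 siCITED1 from -0.10 to -0.08 and those of #3 siCITED1 from -0.11 to -0.07. The mean of the siRNA groups was nearly equal, but its make-up was not. Without DCTD, #1 siCITED1 gave -0.18 ± 0.01 and #3 siCITED1 -0.0028 ± 0.03, against 0.18 ± 0.08 with siNEG.

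**Figure D3:**
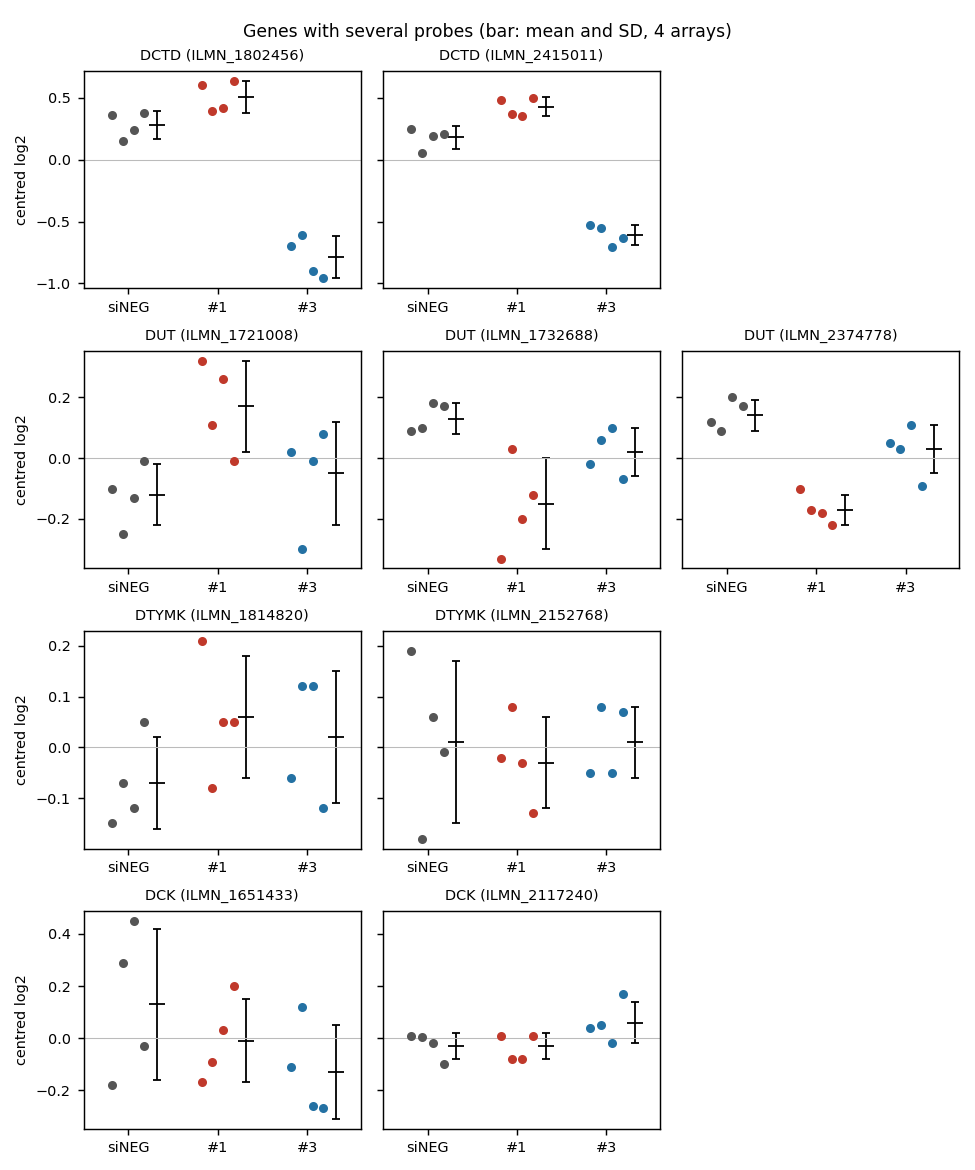
Log2 values on the 12 arrays, centred on each probe, for the genes with more than one probe, namely DCTD, DUT, DTYMK and DCK, with points for arrays by group (horizontal axis) and bars for the group mean ± SD, on a vertical scale set for each gene. The DCTD probes run together and one DUT probe runs against the other DUT probes.

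How far the genes moved together was described by correlations over the 12 arrays, which share the 3 groups and are given without p. TYMS and TK1 had r = 0.89, which was -0.17 once group means were removed. RRM1 and TYMS had r = 0.78 and still 0.73 within groups. Each gene, as the mean of its probes, was also set against the mean of the other 7. There r was 0.85 for RRM2, 0.67 for RRM1, 0.64 for DUT, 0.53 for TYMS and 0.50 for TK1. It was 0.33 for DCK, -0.18 for DCTD and -0.35 for DTYMK. The leading DUT probe alone had r from -0.67 (TYMS) to 0.30 (DTYMK) with the leading probes of the other genes.

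Among all other named probes, the profile most like the mean of the 8 genes was that of CITED1 itself (r = 0.967, 12 arrays), followed by CEP78 (0.957), NTSR1 (0.947), PLAUR (0.941) and WDR54 (0.938). This mean is of genes chosen with the group differences known, and it was as low with #3 siCITED1 as with #1 siCITED1 only with DCTD included, as the values without DCTD above show. For DCTD, a profile chosen after its values were seen, the most alike were RAB2B (0.977), PLCG2 (0.976), RILPL1 (0.972), NIPAL3 (0.961) and IGFBP5 (0.958). RAB2B differed from siNEG by 0.19 with #1 siCITED1 and by -1.05 with #3 siCITED1, beside 0.23 and -1.08 at the leading DCTD probe. The genes most like DTYMK, whose r with the others was lowest, had r from 0.839 to 0.875 and differences no larger than 0.05 from siNEG.

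Other genes of nucleotide metabolism were counted from 3 lists, other deoxynucleotide synthesis and salvage, folate and one-carbon metabolism, and ribonucleotide synthesis, 64 genes and 108 probes in all. Of these probes 9.26% passed with #1 siCITED1 (2 higher, 8 lower), beside 6.04% of all probes, 5.56% with #3 siCITED1 (2 higher, 4 lower), beside 2.54%, and 15.7% between the siRNAs (8 higher, 9 lower), beside 7.46%. Their median differences were -0.02 with either siRNA. With the siRNAs pooled only DCTPP1, a pyrophosphatase of dCTP, passed, with a difference of -0.26 ± 0.06 at ILMN_3242459 (limma, adjusted p = 0.046), while its other probe gave -0.20 ± 0.09 (adjusted p = 0.49). That call was lost when siNEG replicate 1, 2 or 4, any #1 siCITED1 array or #3 siCITED1 replicate 2 or 4 was left out (-0.26 to -0.22). A replicate block, or a fit of only the more variable part of the probes, also lost it (-0.26 in each).

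Several of these fell with #1 siCITED1. Among them were NUDT1, which clears oxidised purine nucleotides, by 0.69 ± 0.08 at ILMN_2330243 (limma, adjusted p = 1.9e-06), and SHMT1, which feeds one-carbon units to TYMS, by 0.60 ± 0.06 at ILMN_1811933 (adjusted p = 4.2e-07). PPAT, of purine synthesis, fell by 0.57 ± 0.07 (adjusted p = 1.6e-06). Other probes of NUDT1 and SHMT1 gave -0.11 ± 0.08 and, for SHMT1, -0.20 ± 0.07 and -0.16 ± 0.08, and did not pass. APRT, of adenine salvage, rose with #1 siCITED1 by 0.38 ± 0.07 and 0.49 ± 0.07 at its probes (adjusted p = 0.00036 and 6.3e-05), and ITPA, which hydrolyses inosine triphosphate, fell by 0.50 ± 0.08 and 0.62 ± 0.08 (adjusted p = 0.00021 and 3.8e-06). PNP, DCTPP1 (ILMN_3242459) and GGH (ILMN_1681754) also passed as lower, with differences of -0.39 ± 0.08, -0.31 ± 0.07 and -0.23 ± 0.07. The other probes of DCTPP1 and GGH, at -0.29 ± 0.09 and -0.19 ± 0.06, did not pass.

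With #3 siCITED1, ADK, adenosine kinase, fell by 0.39 ± 0.08 at ILMN_2358626 (limma, adjusted p = 0.0039), HPRT1, of purine salvage, by 0.34 ± 0.07 at ILMN_1736940 (adjusted p = 0.0084) and TYMP, which breaks down thymidine, by 0.33 ± 0.08 at ILMN_2109708 (adjusted p = 0.018). MTHFD2, of mitochondrial folate metabolism, fell by 0.31 ± 0.07 (adjusted p = 0.014), while ADA, adenosine deaminase, rose by 0.24 ± 0.06 (adjusted p = 0.025) and IMPDH1, of guanine nucleotide synthesis, by 0.33 ± 0.07 at ILMN_1676515 (adjusted p = 0.0076). Their other probes did not pass, with -0.06 to 0.09 for the 3 of ADK, -0.23 for HPRT1, -0.09 to -0.05 for the 3 of TYMP and -0.02 to 0.20 for the 3 of IMPDH1. RRM2B, the alternative small subunit of ribonucleotide reductase, gave 0.06 ± 0.11 and -0.22 ± 0.08 with #1 siCITED1 and -0.16 ± 0.11 and -0.11 ± 0.08 with #3 siCITED1, and no probe passed. SAMHD1, which breaks down deoxynucleotides, gave 0.02 ± 0.07 and -0.02 ± 0.07, and the mitochondrial salvage kinases TK2 and DGUOK also had no probe that passed.

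**Figure D4:**
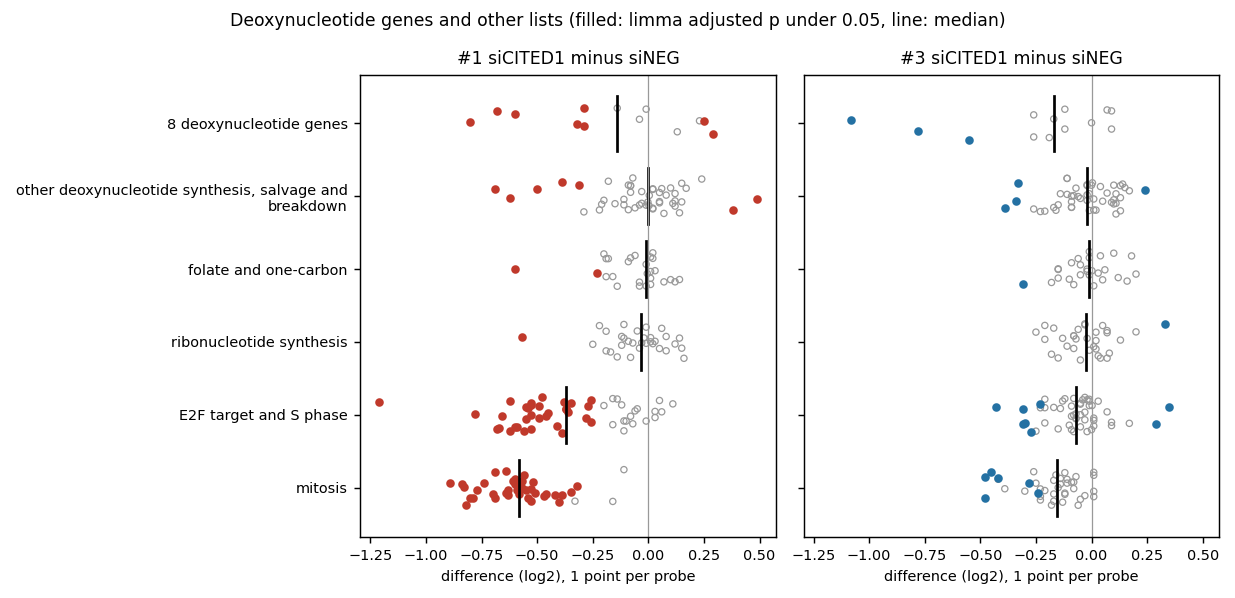
Differences from siNEG (log2, horizontal axis) with #1 siCITED1 and with #3 siCITED1, one panel each, for the probes of the 8 genes and of 5 other lists (one row for each list, one point for each probe, filled where it passed, with a line at the median). The median of the mitosis list at -0.58 and that of the E2F target and S phase list at -0.37 with #1 siCITED1 lie further below 0 than those of the nucleotide lists.

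Genes of the cell cycle moved beside the enzymes. In the E2F target and S phase list, 33 of 51 probes passed with #1 siCITED1, all lower (beside 3.25% of all probes), with a median of -0.37. With #3 siCITED1, 2 passed as higher (beside 1.34%) and 6 as lower (beside 1.2%), with a median of -0.07. In the mitosis list 37 of 40 probes passed as lower with #1 siCITED1 and 6 with #3 siCITED1, beside the same shares, with medians of -0.58 and -0.15. GINS2, part of the replicative helicase, fell by 1.21 ± 0.07 with #1 siCITED1 (limma, adjusted p = 4.3e-11) and gave -0.08 ± 0.07 with #3 siCITED1 (adjusted p = 0.79), which is the order seen at TYMS and TK1. Others passed as lower with both siRNAs, with #1 siCITED1 given first. They included CDC45 (-0.78 and -0.30), TRIP13 (-0.77 and -0.48) and UHRF1 at ILMN_1786065 (-0.62 and -0.43). The other UHRF1 probe gave 0.06 and -0.03 and did not pass. The 2 probes that passed as higher with #3 siCITED1 were those of CDC25A (0.35 and 0.29). With #1 siCITED1 the same probes gave -0.26, which passed as lower, and -0.05, which did not pass. The part of these cell cycle genes in the differences of the 8 genes was not tested. In bulk RNA, fewer cells in S phase and less RNA per cell cannot be told apart.

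The cell type markers could be compared between groups only, since centred values cannot show which are absent. Of the melanocyte and melanoma markers, 5 of 13 probes passed as higher with #1 siCITED1 (beside 2.79% of all probes) and 3 with #3 siCITED1 (beside 1.34%), and no keratinocyte or epithelial probe passed. Fibroblast markers had 2 of 12 probes that passed as higher with #1 siCITED1 and 4 with #3 siCITED1, beside the same shares, and leukocyte markers had 1 of 12 that passed as lower with #3 siCITED1 (beside 1.2%). Their part in the differences was likewise not tested.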

How the data were processed

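Total RNA of HT144 cells was hybridised to Illumina HT-12 BeadChips, and the labels gave the groups. The authors quantile normalized the intensities in BASE and removed control probes. The authors then took log2 values and centred these on genes and samples in MeV, and the deposited log2 values were used with no further scaling or filter, although no background correction or detection call is given in the sources used here. Because centring removed levels, dim probes could not be set apart. Folds assume base 2.

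Probes were named through the array annotation, updated by a current gene table (30105 probes with 1 symbol, 8 with several, 17202 with no entry). Linear models were fitted in limma 3.58.1 (R 4.3.3) with lmFit and eBayes, either with the 8 siCITED1 arrays pooled against 4 siNEG arrays, as published with another test, or with 3 groups. Two-sided p-values had Benjamini-Hochberg adjustment over 47315 probes and a threshold of 0.05. In the fit with 3 groups they set a difference against the spread between wells of one experiment. In the pooled fit the gap between the siRNAs is also part of the error. Errors are SEs of differences or SDs of groups. The number of arrays limits the precision.

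The 8 genes and all lists were chosen with earlier results of these data known. The other lists were fixed without looking at how their genes moved in the deposited values. Adjusted p-values of genes named from them are corrected over all probes, and are no test of a list. The leading probe of a gene is that with the largest SD over the 12 arrays. From each other list the text could name up to 4 genes past the threshold in a contrast, 1 for the E2F and mitosis lists. RRM2B, SAMHD1, TK2 and DGUOK were always named, and CDC25A was added for its probes that passed as higher. Of 133 list entries 128 matched a probe, and of 30 marker entries 28. Promoters came from RefSeq (GRCh38.p14). Probe sequences were not used here. Scripts were tested on simulated data. Alternatives were a replicate block, another scaling or centring, array weights, a robust prior, the more variable part of the probes, 1 row per gene, the mean of the siRNA contrasts and leaving out each array. Replicate numbers did not pair the arrays.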

Additional observations from a re-analysis of the deposited data

Results flagged for a closer look

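The direct comparison of #1 siCITED1 with #3 siCITED1 tests whether the siRNAs differ. Single probes were looked at only for the 8 genes and for the other genes chosen to be named. Of these, the following passed the threshold of limma's adjusted p. Among the 8 genes the difference was 1.31 and 1.04 at the DCTD probes, -0.50 at TYMS and -0.54 at TK1, and since the genes were chosen with such values known these are given as values only. Among purine and deoxynucleotide genes it was -0.62 at NUDT1, -0.65 and -0.64 at ITPA, 0.25 and 0.48 at APRT, 0.30 at ADK, 0.46 at HPRT1, 0.34 at TYMP, -0.52 at PPAT and -0.45 at IMPDH1. Among folate genes it was -0.43 at SHMT1, 0.33 at MTHFD2, -0.39 at SFXN1 and -0.35 at MTHFS. Among cell cycle genes it was -0.48 at CDC45, -1.13 at GINS2, -0.29 at TRIP13, -0.57 and -0.75 at AURKA and -0.84 at KIF23. Other probes of some of these genes did not pass, namely of NUDT1 (0.0035), HPRT1 (0.17), KIF23 (-0.17) and SHMT1 (-0.15 and -0.16). Nor did the other probes of ADK (0.03 to 0.12), TYMP (-0.01 to 0.09) and IMPDH1 (-0.08 to 0.04). Over the whole lists more probes passed than are named here. In the E2F target and S phase list 30 of 51 passed and in the mitosis list 32 of 40, all lower, beside 3.82% of all probes. The other nucleotide lists had 17 of 108, with 8 higher, beside 3.64%, and 9 lower.

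Single arrays that stood far from the other 3 of their group were found in 7 of 186 groups of 4 arrays, where chance gives about 1 in 20, and in none of those of the 13 probes of the 8 genes. Among siNEG arrays, ADK (ILMN_1801020) was 0.16 on replicate 4 with the others from -0.05 to -0.02, TYMP (ILMN_1690939) was -0.16 on replicate 2 with the others from 0.03 to 0.07, AURKA (ILMN_1680955) was 0.36 on replicate 2 with the others from 0.28 to 0.29, and DGUOK (ILMN_1743432) was 0.12 on replicate 4 with the others from -0.07 to -0.05. Among #3 siCITED1 arrays, IMPDH1 (ILMN_2388363) was 0.13 on replicate 1 with the others from -0.08 to -0.05, and KIF23 (ILMN_1811472) was 0.15 on replicate 2 with the others from 0.32 to 0.34. In #1 siCITED1, RRM2B (ILMN_1698231) was -0.13 on replicate 1 with the others from 0.15 to 0.19.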

How the results depend on the processing

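In the pooled comparison 1 of the 13 probes passed, and 7 passed when the mean of the #1 and #3 contrasts was taken instead, a fit in which the gap between the siRNAs is no error. There 2 passed after a further quantile normalization, with medians and deviations equalised or with array weights, and 3 in the more variable part of the probes, which holds 11 of the 13. In the other nucleotide lists the pooled count of 1 became 11 with the mean of contrasts and 2 under each of those other settings and with a robust prior. With the replicate block it became 0. The block left the counts of the 8 genes at 1, 8, 3 and 4 in the pooled, #1, #3 and direct comparisons. In the more variable part of the probes, the 2 called in the other lists did not include ILMN_3242459 of DCTPP1. The numbers did not pair the arrays, with correlations of deviations between -0.0538 and 0.0979 and the own number the best in 3 of 12 cases.

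With 1 row per gene the pooled count of 1 in the other lists was a gene that was higher, not DCTPP1. In that fit 5 of the 8 genes passed with #1 siCITED1, and DUT turned from 0.29 at ILMN_1721008 to -0.10, since its other probes enter the mean. Leaving out each array gave 1 to 2, 4 to 8, 3 to 4 and 4 to 5 calls among the 13 probes, and 0 to 2, 9 to 13, 4 to 7 and 14 to 18 in the other lists. The count of 8 with #1 siCITED1 became 5 without siNEG replicate 2 and 4 without #1 siCITED1 replicate 1, and the pooled count became 2, with TK1 added, without #3 siCITED1 replicate 1, 3 or 4. The pooled count of 1 in the other lists became 2 without siNEG replicate 3 or #3 siCITED1 replicate 1, and 0 without siNEG replicate 1, 2 or 4 or any #1 siCITED1 array. Of 616 differences at the leading probes under all alternatives, 611 moved by less than the spread between replicates, 4 moved further and 1 reversed. Of the 616, 26 crossed the threshold. The 611 is no measure of stability, since several alternatives could not change a difference. These were the replicate block, the robust prior, the more variable part of the probes and the mean of the siRNA contrasts. Leaving out an array of a group outside the comparison could not change it either. Only a difference that had passed could count as reversed. With 1 row per gene the pooled DUT difference also changed sign, from 0.18 to -0.08.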
